A study of Mus musculus with 2 samples.

Results

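In all, 10 genes of the Notch pathway were read in open chromatin of the young mouse cortex: the receptors Notch1 and Notch2, the ligands Dll1, Dll3, Jag1 and Jag2, the nuclear effector Rbpj and the target repressors Hes1, Hes5 and Hey1. They were chosen by name, as 10 of the 21938 protein-coding genes of the GENCODE M21 annotation, and all 10 symbols were found in it. The assay was DNase-seq, in which the enzyme DNase I cuts DNA that is not packed in closed chromatin. Stretches with many cuts are called peaks, and short stretches protected from cutting are called footprints. Nuclei came from the left cerebral cortex of 2 untreated female B6CASTF1/J mice aged 10 days, the first-generation cross of the laboratory strain C57BL/6J with the wild-derived CAST/EiJ. The labels name them biological replicates 1 and 2 and number the animals separately, but both carry 1 donor identifier, so differences between animals and between library preparations cannot be separated. They form 1 group, so no condition was compared, and each value below is given for both libraries. The tissue was not sorted by cell type, and a weak peak can come from few open cells or from little cutting in many, which cannot be told apart here.

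In the Notch pathway, Delta and Jagged ligands on 1 cell bind Notch receptors on its neighbour. The receptor is then cleaved by proteases, its inner part enters the nucleus and joins RBPJ on DNA, and genes of the Hes and Hey repressor families are switched on. In the developing cortex the pathway is known for keeping neural progenitors from becoming neurons, and later for its roles in glia and blood vessels. RBPJ binds the letters GTGGGAA, and Hes repressors bind the C site CACGCG and the N box CACNAG.

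The peak signal is the authors' value per peak, scaled by library, and no source used here states its scale. It moved in whole steps of 0.00692 in replicate 1 and 0.00758 in replicate 2. Each library had 2 peak lists. The smaller is called the stricter list and held 60071 and 70563 peaks in the first and second replicate; the larger list held 109563 and 121943. Footprints numbered 212785 and 224029. Promoter peaks in both libraries were found at 4 of 8 markers of cortical neurons, 5 of 8 of astrocytes and radial glia, 3 of 5 of the oligodendrocyte lineage, 2 of 5 of microglia, 1 of 7 of endothelial and mural cells, 1 of 5 of interneurons and 0 of 5 of other brain regions. Over all protein-coding genes the share was 55.2%. Only the markers of astrocytes and radial glia (62.5%) and of the oligodendrocyte lineage (60.0%) lay above it, so these counts do not test the tissue label. At 3 of the 8 neuron markers only 1 library had a peak. Coordinates are on mm10, counted from 1.

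The sequences on which the motif results turn are shown first, from the reference genome, 5′ to 3′ on the strand of the gene; the CAST/EiJ copy of these mice can differ from them. The 2 RBPJ matches at the Hes5 promoter, in capitals, lie in the 250 bases before the start site (chr4:154960673-154960922, RefSeq, GRCm38.p6). The second line is the Hes5 peak of replicate 1 further upstream (chr4:154958287-154958480), and the third is the Rbpj peak of replicate 1 in an intron (chr5:53589261-53589560). Each of these 2 holds 1 match, read from the opposite strand as TTCCCAC.
Hes5 promoter: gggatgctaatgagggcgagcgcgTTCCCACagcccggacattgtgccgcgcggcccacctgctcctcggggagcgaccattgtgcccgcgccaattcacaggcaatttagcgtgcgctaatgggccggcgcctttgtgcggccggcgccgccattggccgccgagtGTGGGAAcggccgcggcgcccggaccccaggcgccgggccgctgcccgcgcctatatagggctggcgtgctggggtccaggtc
Hes5 distal peak: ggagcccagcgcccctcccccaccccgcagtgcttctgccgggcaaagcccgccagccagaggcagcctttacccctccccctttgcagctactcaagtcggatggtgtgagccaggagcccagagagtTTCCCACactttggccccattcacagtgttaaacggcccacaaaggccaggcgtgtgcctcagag
Rbpj intronic peak: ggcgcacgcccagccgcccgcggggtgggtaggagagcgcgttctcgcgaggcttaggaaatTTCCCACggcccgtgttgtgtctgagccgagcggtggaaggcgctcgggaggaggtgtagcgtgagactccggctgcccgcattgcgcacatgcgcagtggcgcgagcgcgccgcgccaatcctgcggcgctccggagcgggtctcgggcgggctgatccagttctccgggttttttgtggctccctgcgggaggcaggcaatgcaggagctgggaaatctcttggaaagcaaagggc

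Also shown are 3 promoters at which a match touched footprints of both libraries. The Jag1 promoter peak of replicate 1 (chr2:137116681-137116860, minus strand) lies before the start site and has 2 overlapping matches of GCGCATGC, part of the palindromic site of the factor NRF1, 1 on each strand and both in capitals. The Rbpj line is the 27 bases of the footprint of replicate 1 (chr5:53590464-53590490), again with GCGCATGC in capitals. The Notch2 line is the promoter peak of replicate 1 up to the start site (chr3:98013341-98013526), with the GC box GGGCGG in capitals on either strand, and of its 3 matches the middle one, at chr3:98013456-98013461, touched footprints of both libraries.
Jag1 promoter peak: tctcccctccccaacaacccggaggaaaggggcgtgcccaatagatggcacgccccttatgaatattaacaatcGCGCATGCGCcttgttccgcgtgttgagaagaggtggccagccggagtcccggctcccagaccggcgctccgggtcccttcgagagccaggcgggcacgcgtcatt
Rbpj footprint: cctGCGCATGCtccatcggcggggtag
Notch2 promoter peak: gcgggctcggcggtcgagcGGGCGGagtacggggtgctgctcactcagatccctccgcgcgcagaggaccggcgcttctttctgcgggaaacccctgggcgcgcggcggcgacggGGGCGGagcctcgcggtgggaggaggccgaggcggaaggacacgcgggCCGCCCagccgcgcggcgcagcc

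A promoter peak was present in both libraries at 9 of the 10 genes, where a promoter peak is one of the stricter list within 500 bp of any annotated start site. Over all protein-coding genes the share was 55.2%. In the larger lists it was again 9 of 10, against 61.0% of all genes. Many promoters lie in DNA rich in CpG, so the comparison was also made among such genes. The ratio of observed to expected CpG in the 300 bp RefSeq promoter window ranged from 0.573 to 1.14 in the 8 genes that the RefSeq table holds (Hes1 and Hey1 are not among them), and 7 of these 8 were open in both libraries. Among all genes with a ratio of at least the lowest of theirs, 86.4% were, so the count is near the background of genes with this CpG content. The lowest ratio is that of Dll3, whose shared peak lies at another start site than the window in which CpG was measured. Where only the 5′ end of the gene itself was used, 6 of the 10 were open in both libraries, against 49.5% of all genes.

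**Figure D1:**
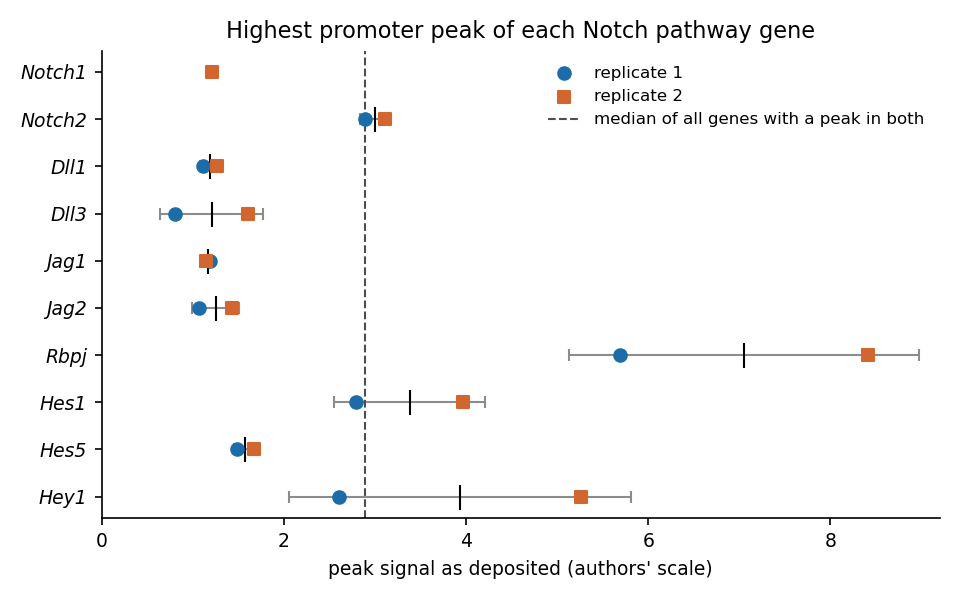
Highest promoter peak signal (x axis, scale of the authors) of each gene in replicate 1 (circles) and replicate 2 (squares), with the mean (tick) and SD (bar, n = 2). The dashed line is the median of 2.89 over all genes with a promoter peak in both libraries; Rbpj lies furthest above it, the 4 ligands and Hes5 lie below it in both libraries, and Notch1 has a value in replicate 2 only.

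The receptors differed. At Notch2 the signal was 2.88 (replicate 1) and 3.11 (replicate 2), with a mean of 3.0 ± 0.16 (SD, n = 2), higher than 51.9% of all promoters open in both libraries. The Notch2 libraries were close to each other, with a difference of 0.11 on the log2 scale (replicate 2 over replicate 1). Notch1 had no promoter peak of either list in replicate 1 and a single one in replicate 2, of signal 1.21 at chr2:26503703-26503840. That peak lies over the start sites of the coding transcript Notch1-201 and of Notch1-205, which keeps an intron (26503822 and 26503824). In replicate 1 no position within 500 bp of these sites was listed with a false discovery rate (FDR) under 0.05, whereas in replicate 2 the lowest FDR there was 5.82e-05. The 5′-most annotated start of Notch1, that of Notch1-206 at 26516663, had no peak in either library, and 9 of its 11 start sites had none in any list. The Notch1 promoter peak thus rests on 1 library.

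The ligands, membrane proteins that activate Notch or, for Dll3, act on it within the same cell, had weak promoter peaks. Jag1 had 1.18 in replicate 1 and 1.14 in replicate 2 (1.16 ± 0.03, SD, n = 2), the lowest mean of the 9 genes. Dll1 had 1.11 and 1.27 (1.19 ± 0.11). Jag2 had 1.07 and 1.43 (1.25 ± 0.26). Dll3 had 0.809 and 1.61 (1.21 ± 0.56), the widest relative gap of the ligands, since replicate 2 was 0.99 higher on the log2 scale. The means of the 4 ligands, 1.16 to 1.25, lay closer together than the libraries of Jag2 or Dll3, so these data give them no order. The ligands' places among all open promoters ran from 14.3% (Jag1) to 16.6% (Jag2) of promoters with a lower signal.

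For 2 ligands the peak was not at the 5′ end of the gene. The Dll1 peak (chr17:15375721-15376280 in replicate 1) lay over the start of the coding transcript Dll1-201 at 15375976, while the 5′-most start, of the coding transcript Dll1-205 at 15376872, had only 3 weak peaks in the larger list of replicate 1, the highest of 0.464. The Dll3 peak shared by both libraries (chr7:28294644-28294708 in replicate 1) lay near the 3′ end of the gene, within 500 bp of the start of Dll3-202, a transcript annotated as keeping an intron. At the start of the coding transcript Dll3-201 (28302238) the larger lists had 0.733 in replicate 1 and 1.02 in replicate 2, and the stricter list only the latter. With starts of coding transcripts alone, 8 of the 10 genes were open in both libraries, against 53.7% of all genes, and Dll3 was the gene lost.

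Rbpj, which encodes the DNA-binding partner of all Notch receptors, had the strongest promoter peak of the 10. Its signal was 5.69 in replicate 1 and 8.41 in replicate 2 (7.05 ± 1.92, SD, n = 2), higher than 92.5% of open promoters, and the lower of its libraries exceeded the higher library of every other gene of the 10. The peak (chr5:53590221-53590520 in replicate 1) lay over the starts of Rbpj-208 and Rbpj-203 at 53590368 and 53590471, and the start of Rbpj-201 at 53590214 lay just outside it. The upstream coding starts at 53466152 and 53555834 had no peak in any list. The Rbpj footprint shown above covers the Rbpj-203 start at 53590471.

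The target repressors fell on both sides of the median promoter. Hey1 had 2.61 in replicate 1 and 5.26 in replicate 2 (3.93 ± 1.88, SD, n = 2), a difference of 1.01 on the log2 scale and the largest among the 9 genes. Hes1 had 2.79 and 3.96 (3.38 ± 0.83) at its coding start, chr16:30065121-30065360 in replicate 1. A second Hes1 promoter peak, at the start of the noncoding transcript Hes1-202 (30064384), had 1.34 in replicate 1 and 2.73 in replicate 2. Hes5 had 1.49 and 1.67 (1.58 ± 0.13), higher than only 24.4% of open promoters. The ranges of Hes1 and Hey1 overlapped, and both lay above that of Hes5 in each library. Near Hey1 the libraries also had peaks that did not overlap, of signal 1.12 at chr3:8667541-8667878 in replicate 1 and 1.60 at chr3:8667421-8667540 in replicate 2.

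Over the 9 genes the median of the mean promoter signal was 1.58, against 2.89 over all genes with a promoter peak in both libraries, and 4 of the 9 (Notch2, Rbpj, Hes1 and Hey1) lay above that median. Replicate 2 was higher at 8 of the 9, Jag1 being the exception, with a median difference of 0.43 on the log2 scale (-0.05 to 1.01). Over all such promoters the median difference was 0.56 with an SD of 0.28, and 3 of the 9 (Jag2, Rbpj and Hes1) lay within that SD of the median, against 71.6% of all. Of the others, Notch2, Dll1, Jag1 and Hes5 differed less between the libraries and Dll3 and Hey1 more. With coding starts alone the median of the remaining 8 was 2.29, against 2.92 over all genes.

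**Figure D2:**
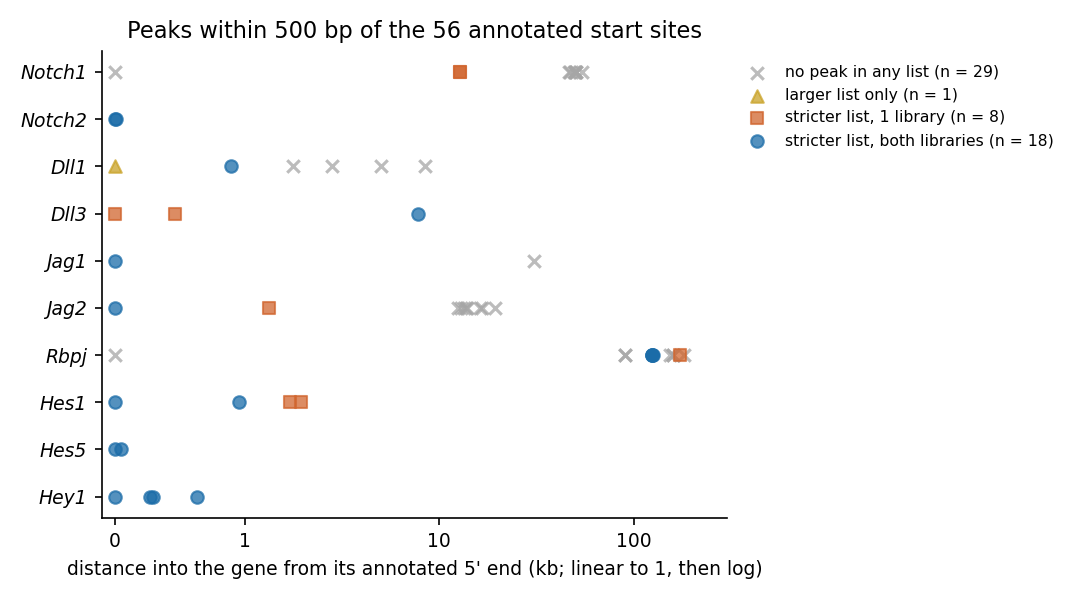
Each mark is 1 of the 56 annotated start sites of the 10 genes, placed by its distance into the gene from the 5′ end (kb, linear to 1 and then logarithmic) and marked by the peaks within 500 bp. Blue circles (18 sites, peak in both libraries) sit at the 5′ end for Notch2, Jag1, Jag2, Hes1, Hes5 and Hey1, but within the gene for Dll1, Dll3 and Rbpj; crosses (29 sites) have no peak in any list.

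The 56 start sites of the 10 genes were unequal. At 18 of them both libraries had a peak of the stricter list, at 26 at least 1 library did, and at 29 none of the 4 lists had a peak. All start sites of Notch2, Hes5 and Hey1 were open in both libraries (2 of 2, 2 of 2 and 4 of 4), although those of a short gene share 1 peak. In Jag2, which has 10 annotated start sites, 1 was open in both libraries and 8 had no peak in any list. The crowded sites without a peak, such as those of Notch1, Jag2 and Dll1, are mostly starts of transcripts annotated as noncoding or as keeping an intron.

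Footprints mark places within open chromatin where bound protein may shield DNA. Of the 10 genes, 9 had promoter footprints in both libraries, against 58.2% of all protein-coding genes, open or not. They are the same 9 that had a promoter peak in both libraries, so this count is not independent of the peak count. Notch1 had 0 footprints in replicate 1 and 3 in replicate 2. The 10 genes had 59 footprints in replicate 1, of which 38 (64.4%, 95% Wilson interval 51.7 to 75.4%) overlapped one of replicate 2. Over all coding promoters the same share was 58.2%, inside that interval. Of the 59, only 40 overlapped a peak of the stricter list of replicate 1, and 33 of these 40 overlapped a footprint of replicate 2. Of the 75 footprints in replicate 2, 37 (49.3%, 38.3 to 60.4%) overlapped one of replicate 1, against 56.7% of all. These intervals cover counting error only, and neighbouring footprints of 1 promoter are not independent.

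**Figure D3:**
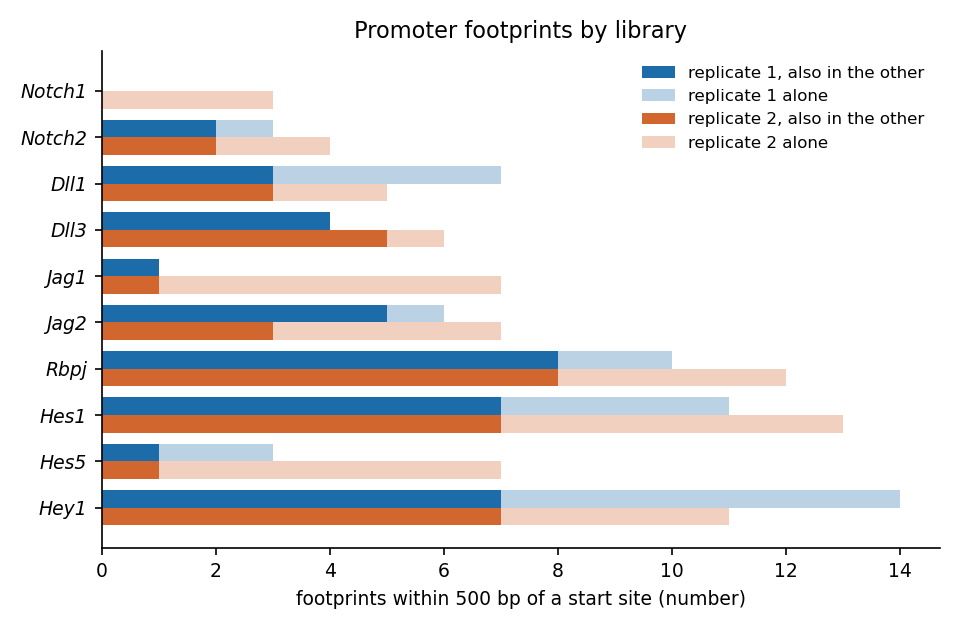
Number of footprints (x axis) within 500 bp of any start site of each gene, for replicate 1 (upper bar) and replicate 2 (lower bar); the dark part overlaps a footprint of the other library. Rbpj shares 8, Hes1 and Hey1 share 7 each, and Jag1 and Hes5 share 1 each.

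Rbpj, Hes1 and Hey1 had the most shared footprints. At Rbpj 8 of 10 footprints in replicate 1 and 8 of 12 in replicate 2 were found in the other library. Hes1 shared 7 of 11 and 7 of 13, and Hey1 shared 7 of 14 and 7 of 11. Dll3, with weak peaks, also shared nearly all of its footprints, 4 of 4 in replicate 1 and 5 of 6 in replicate 2. Most of the Dll3 footprints, 3 in replicate 1 and 4 in replicate 2, lay by the start of Dll3-202, which keeps an intron. The coding start of Dll3-201 had 1 and 2. At Jag1, by contrast, replicate 1 had 1 footprint, which was shared, and replicate 2 had 7, of which 1 was shared. Hes5 also shared 1, out of 3 in replicate 1 and 7 in replicate 2. The single shared Jag1 footprint is the one with the NRF1 letters printed above.

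Motifs were searched on both strands, with no mismatch, so that each match is a description of letters and not a binding site. The RBPJ letters GTGGGAA were found in a promoter peak of 1 gene, Hes5, of the 8 that the RefSeq table holds, against 8.23% of all genes with a promoter peak. In 300 bp RefSeq windows 1 of these 8 genes had a match, in 1 of their 10 windows, and 6.38% of 32851 windows did. The matches lay at -223 and -80 bp from the Hes5 start site and overlapped the peaks of both libraries, but neither touched a footprint in either library. The shorter core TGGGAA, which is part of the longer motif, was also found at Rbpj itself, so in 2 of 8 genes, against 27.8% of all genes. The Rbpj match lies in the peak of replicate 1 alone, and in peaks of replicate 2 the core was in 1 of 8 genes, against 24.4%. The relaxed GTGNGAA gave Hes5 alone, against 15.8%. No pair of RBPJ matches facing each other at 13 to 20 bp, the arrangement on which Notch complexes are known to dimerise, was found in the 10 windows of these 8 genes. Of the 32851 windows, 6 had one. Promoters of Hes1 and Hey1 were not searched for motifs.

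Letters of the Hes C site, CACGCG, were in RefSeq windows of 4 of the 8 genes (Dll1, Jag1, Jag2 and Notch2), against 9.27% of all windows and 22.0% of the windows at least as rich in CpG as the lowest of these genes. The 8 genes have 10 windows, and for each motif of this paragraph as many of these windows as genes had a match. Within promoter peaks there were 3 matches, 2 at Jag1 and 1 at Notch2, and none touched a footprint. The N box CACNAG was in windows of 3 of the 8 genes (Dll1, Notch1 and Notch2), against 42.5% of all windows and 37.8% of the CpG-rich ones. None of its 4 matches in promoter peaks touched footprints of both libraries. The NRF1 letters GCGCATGC are known from promoters of housekeeping genes. They were in windows of 2 of the 8 genes (Dll3 and Rbpj), against 2.71% of all windows and 6.12% of the CpG-rich ones. The Dll3 match lay in no peak of the stricter list and touched no footprint. In promoter peaks these letters were found 3 times, 2 of them overlapping at Jag1, outside its RefSeq window, and 1 at Rbpj. All 3 matches in promoter peaks touched footprints of both libraries. GC boxes (GGGCGG), found in RefSeq windows of 5 of the 8 genes beside 35.7% of all windows and 71.3% of the CpG-rich ones, had 13 matches in promoter peaks. Of these 13, 3 touched footprints of both libraries, at Notch2, Jag2 and Dll3, the last by the start of Dll3-202. CCAAT was in windows of 3 of the 8 genes, beside 37.4% of all and 35.8% of the CpG-rich ones, and its Dll1 match at -79 bp from the start site touched footprints of both libraries.

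Away from start sites, 31 shared peaks lay in the bodies of these genes or within 50 kb of them. Shared means present in replicate 1 and overlapped by at least 1 bp in replicate 2; peaks of replicate 1 within 500 bp of any annotated start site were left out. For 1 of the 31, at Jag2, the peak of replicate 2 did reach such a window. At least 1 such peak was found for 9 of the 10 genes, against 76.5% of all protein-coding genes, and Dll3 had none. Notch2 had 6, Notch1 and Hes5 had 5 each, Jag1 and Rbpj had 4 each, Hey1 had 3, Jag2 had 2, and Dll1 and Hes1 had 1 each. The median was 3.5 a gene, against 2 over all coding genes. Per 100 kb of gene and flanks the median was 2.09 against 1.46, and 6 of the 10 genes lay above the latter. Hes5, with 4.93 per 100 kb, lay above 96.6% of all coding genes and Notch1, with 3.15, above 84.4%. For 23 of the 31 peaks the nearest start site of any protein-coding gene, noncoding transcripts included, belonged to a member of the 10. The other 8 were nearer to another gene, so their place near a gene does not tell which gene they serve.

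**Figure D4:**
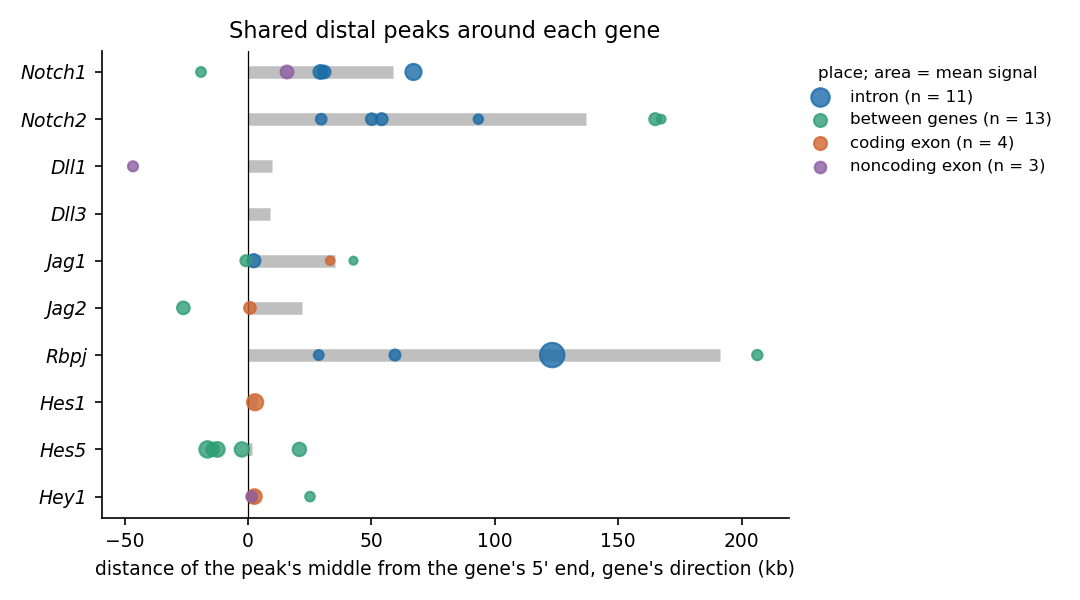
Shared distal peaks of each gene by the distance of their middle from the 5′ end of the gene (x axis, kb, in the direction of the gene), with the gene body in grey, colour for the place and area for the mean signal. The largest mark is the Rbpj peak within the gene; the peaks of Hes5 lie outside the gene, 4 of them upstream, and Dll3 has none.

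The strongest of the 31 was the Rbpj peak printed above (chr5:53589261-53589560). It had 3.42 in replicate 1 and 5.75 in replicate 2 (4.59 ± 1.65, SD, n = 2) and lay in an intron of the long Rbpj transcripts, 803 bp before the nearest Rbpj start. Both of its libraries exceeded every other distal peak of the 10 genes. It lies so close to the start that it is lost when peaks must be more than 1000 bp from any start site. Its single RBPJ match touched a footprint of replicate 1 and none of replicate 2.

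Around Hes5, a Notch target of neural stem cells, 4 of 5 distal peaks lay upstream and none within the gene. The peak at chr4:154944381-154944580, 16442 bp before the nearest Hes5 start, had 2.07 and 2.12 (2.10 ± 0.04, SD, n = 2), with the libraries nearly equal, and it lay about as near to the start of Tnfrsf14 (15918 bp). The peak at chr4:154948321-154948521 had 1.74 and 1.65 (1.70 ± 0.06), and the printed one, 2539 bp before the start, had 1.31 and 1.92 (1.61 ± 0.43). The mean signal of these 3 Hes5 distal peaks exceeded the 1.58 of the Hes5 promoter. That promoter had 1.49 in replicate 1 and 1.67 in replicate 2, and only the peak at chr4:154944381-154944580 was above it in both libraries. The RBPJ match of the printed peak touched a footprint of replicate 1 only. Another match near Hes5 lay within 100 bp of the middle of the narrow peak at chr4:154946525-154946577, but outside that peak.

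At 3 genes a shared peak lay in the coding part of the last exon. The Hes1 peak (chr16:30067101-30067300, exon 4 of 4) had 1.38 in replicate 1 and 2.68 in replicate 2 (2.03 ± 0.92, SD, n = 2). The Hey1 peak (chr3:8664601-8664840, exon 5 of 5) had 1.37 and 1.98 (1.67 ± 0.43). The Jag1 peak (chr2:137083280-137083516, exon 26 of 26) had 0.581 and 0.576 (0.579 ± 0.004). Another peak in a coding exon lay at Jag2 (chr12:112928981-112929092, exon 2 of 26), with 0.768 and 1.39 (1.08 ± 0.44). Coding exons thus held 4 of the 31 peaks, against 1.87% of the 33824 shared distal peaks, and last exons 3, against 0.754%. Hes1 and Hey1 are short genes, and for them the place in the exon and the nearness to a start site go together. The nearest start was 863 bp away at Hes1 (noncoding Hes1-204) and 1904 bp away at Hey1 (Hey1-202, which keeps an intron). The 5′ ends of the genes were 2817 and 2535 bp away.

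Of the other peaks, 11 lay in introns, 13 between genes, 3 in exons of transcripts annotated as noncoding and 0 in untranslated parts of coding exons. The strongest around Notch1 (chr2:26449541-26449740) had 1.69 and 2.35 (2.02 ± 0.47, SD, n = 2), but it lay downstream of the gene in an intron of 0610009E02Rik, nearer to a start of the coding gene Sec16a (4425 bp). Within the gene, 2 Notch1 intron peaks had means of 1.25 and 1.47, and these were present in both libraries although the promoter peak was not. The strongest Notch2 peak (chr3:98178421-98178680) had 1.09 and 1.15 (1.12 ± 0.05) and lay downstream, nearer to Adam30. For Jag1 it was an intron peak 2307 bp into the gene (chr2:137114223-137114450), with 1.26 and 1.43 (1.34 ± 0.12). For Jag2 it lay upstream (chr12:112955969-112956098), with 1.13 and 1.36 (1.24 ± 0.16), nearer to Brf1. The single Dll1 peak (chr17:15423448-15423652) had 0.844 and 0.743 (0.793 ± 0.072) and lay in Fam120b.

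The median signal of the 31 peaks was 1.11, against 0.901 over all shared distal peaks, and 20 of the 31 lay above the latter. Replicate 2 was higher in 24 of the 31, against 80.4% of all shared distal peaks, with a median difference of 0.27 on the log2 scale beside 0.29 overall. Footprints were found in 31 of the 31 in replicate 1, against 92.7% of all shared distal peaks, and in 30 in replicate 2, against 92.2%. RBPJ letters were found in 3 of the 31 windows of 200 bp around the middle of a peak (2 at Hes5 and 1 at Rbpj), against 5.71% of all distal peaks. C site letters were found in 2 windows, at Hes1 and Jag2, against 2.33%, and touched no footprint. N box letters were in 12 of the 31, against 45.1%, and 4 matches, 2 near Hes5, 1 at Hey1 and 1 near Jag2, touched footprints of both libraries.

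The other genes of the pathway, 46 in number and listed by role, had a promoter peak in both libraries in 34 cases, or 73.9% beside the 55.2% of all genes, with no comparison at equal CpG content. In the larger lists there were 38. The proteases that cleave the receptor were open in 10 of 10 cases, Aph1c, a part of the gamma-secretase complex, being the strongest with 5.46 and 9.48 in the 2 libraries. Genes of turnover and inhibition were open in 7 of 8, led by Numb, an inhibitor of the receptor, with 6.12 and 9.05. Sugar transfer to the receptor had 4 of 5, led by Pofut1 with 1.31 and 2.48, and ligand endocytosis had 3 of 4, led by Mib2 with 3.78 and 7.26. Nuclear cofactors had 4 of 6, led by the coactivator Maml1 with 5.08 and 7.70.

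**Figure D5:**
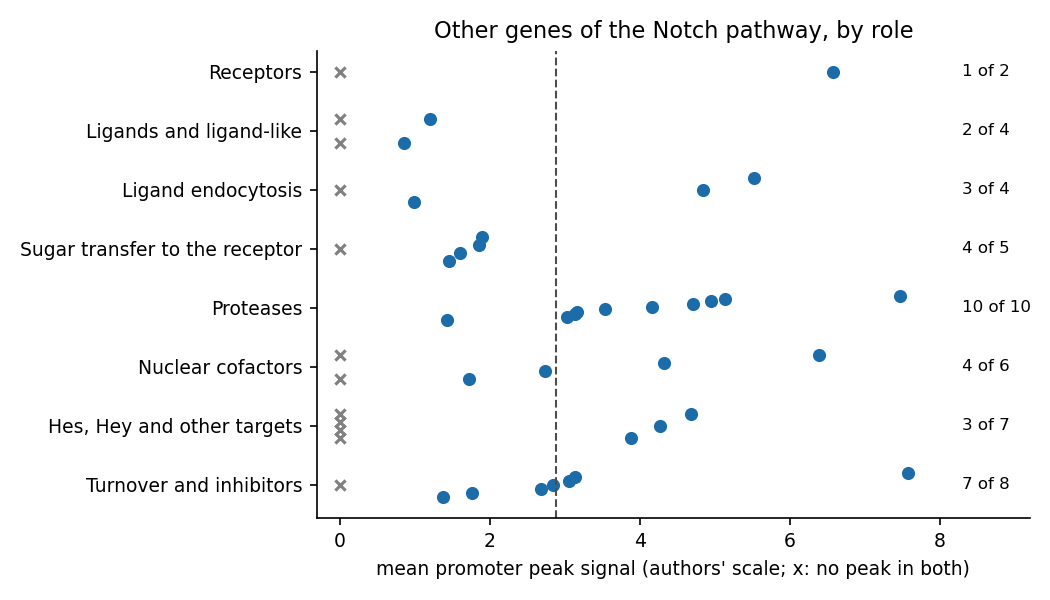
Mean promoter peak signal of both libraries (x axis, scale of the authors) for the 46 other genes of the pathway by role; crosses at the left are genes without a peak in both libraries, and the dashed line is the median of 2.89 over all such promoters. All 10 proteases are open, whereas 1 of 2 receptors, 2 of 4 ligands and ligand-like genes and 3 of 7 Hes, Hey and other targets are.

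Among ligands, receptors and targets, about as many genes lacked a peak as had one. Of the ligands and ligand-like genes 2 of 4 were open, Dner being the stronger with 0.989 and 1.41, and Dll4 and Dlk1 had no peak of the stricter list. Notch4 was open with 3.47 and 9.69, the widest ratio between libraries among the genes named here, and Notch3 had no peak. Of the targets 3 of 7 were open, led by Hey2 with 3.77 and 5.59, whereas Hes2, Hes3, Hes7 and Heyl had no peak of the stricter list. Neurl1b of the endocytosis genes and Dtx3 of the turnover genes had none in the stricter list either. In the larger lists Neurl1b had 0.547 and 0.667, while Dtx3 (0.857), Heyl (0.455) and Dlk1 (0.546) had a peak in replicate 2 alone. These counts rest on small lists and were not tested against each other.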

How the data were processed

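DNase-seq was done on 2 libraries of 1 group. Per the labels and file headers, the deposited peaks and footprints came from the filtered mm10 alignments of each library, and replicates were not pooled; no source used here names the aligner, the callers or their thresholds. The deposited signal is 1 value per peak on a scale set by the authors, in whole steps per library (100% within 0.01 of a step). The depth of the libraries is unknown. The p-value column of the deposited footprints holds 0.01 throughout, and the authors' list of positions holds FDR values under 0.05. Differences of signal between libraries depend on the scaling.

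The 10 genes, the other lists and the motifs were chosen with earlier results of these data known. Genes named from the longer list are the strongest of each role and those without a peak; distal peaks named are the 5 strongest and the strongest of each gene, plus those in coding exons and those with motif matches, chosen after their values were seen. Overlaps of at least 1 bp were computed in Python 3.11.15 with numpy 2.4.6 and pandas 2.3.3, on GENCODE M21 and GRCm38.p6, and tested on simulated data. With 2 libraries of 1 group, no test was run; SDs are over n = 2. Alternatives were other lists, windows, overlaps and flanks, and each library alone. Promoters shared with a neighbouring gene were not separated.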

Additional observations from a re-analysis of the deposited data

How the results depend on the processing

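Over the settings that need both libraries, 6 to 9 of the 10 genes and 30 to 38 of the 46 others had a promoter peak, beside 48.9% to 61.0% of all genes; replicate 2 alone gave 10 and 37, beside 59.0%, and replicate 1 alone 9 and 34, beside 56.0%. The median promoter signal of the members moved beyond the spread of the libraries in 1 setting, starts of coding transcripts only, added after seeing the data, where it was 2.29. The 31 shared distal peaks became 68 in the larger list, 18 among the stronger 50% of peaks and 56 with flanks of 100 kb; each library alone gave 37 to 54, and leaving start site windows out of both libraries gave 30. The 38 shared promoter footprints became 59 to 75 in 1 library alone, since these need no partner, and stayed within 1.5 times under the other settings. The RBPJ core of 6 letters raised the genes with a match in a promoter peak from 1 to 2. The median signal difference over the 42 shared promoter and distal peaks was 0.30 on the log2 scale and 0.17 in steps, without the scaling of the authors. Where more peaks were listed or a wider region was read, the counts are larger by construction. No paired analysis was possible because the libraries form 1 group.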
